A study of Mus musculus with 12 samples.

Results

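The 9 genes described here encode drug-metabolizing enzymes of the cytochrome P450 families 1 and 2: CYP1A1, CYP1A2, CYP2A6, CYP2B6, CYP2C8, CYP2C19, CYP2D6, CYP2E1 and CYP2J2. They were taken by symbol from a table of 36292 human gene symbols. All 9 were in the table, and all 9 were among the 15836 genes with enough reads to be tested. They were measured by RNA sequencing in tumors of Hep3B, a human hepatocellular carcinoma line, grown under the skin of female BALB/c nu/nu mice injected at about 8 weeks of age. Once tumors averaged about 500 mm3, mice were dosed daily by oral gavage. Each of the 4 groups held 3 tumors from 3 mice: a vehicle group, a group given H3B-6527 (300 mg/kg), an inhibitor selective for the fibroblast growth factor receptor FGFR4, a group given lenvatinib (10 mg/kg), an inhibitor of VEGF and FGF receptors and other kinases, and a combination group given both. Tumors were removed 8 hours after the 4th dose. All groups share the cell line, the immunodeficient host without functional T cells, the site under the skin and the handling by gavage, so a single cell line stands for the disease in every value.

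Cytochromes P450 are heme enzymes of the endoplasmic reticulum that use electrons from POR, the P450 reductase, to insert oxygen into drugs, toxins, steroids and fatty acids. Hepatocytes hold most of them, and their genes depend on liver transcription factors such as HNF4A. The CYP1 genes are induced through the aryl hydrocarbon receptor AHR, and CYP2B6, CYP2C8, CYP2C19 and CYP2A6 respond to the drug-sensing nuclear receptors CAR (gene NR1I3) and PXR (gene NR1I2). CYP2D6 is classed as little inducible by drugs. CYP2E1 is stabilised by ethanol, and CYP2J2, found in many tissues, makes epoxides of arachidonic acid.

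Library totals ran from 23.8 to 40.9 M counts, and levels are given as CPM, counts per M (mega) counts of the tested genes' total after TMM scaling. Because CPM does not account for transcript length, levels are compared between tumors and never between genes. The summed level of 10 hepatocyte-lineage genes (ALB, AFP, TTR, APOA1, APOB, SERPINA1, FGB, FGG, TF and GPC3) was 88554 to 97329 CPM with vehicle and 94882 to 115530 CPM with lenvatinib. With H3B-6527 it was 205030, 186580 and 140810 CPM in replicates 1, 2 and 3, and with the combination it was 169780 to 191650 CPM. Endothelial markers summed to between 2.30 and 4.61 CPM in every tumor, with ERG at 0, and 8 of the 9 in the table averaged under 1 CPM. Fibroblast markers summed to 317.6 to 403.3 CPM with vehicle, 313.1 to 367.2 with lenvatinib, 152.9 to 214.6 with H3B-6527 and 157.3 to 212.2 with the combination. Of those 10 genes, 7 averaged under 1 CPM, DCN and LUM stayed at or below 0.18 CPM in each tumor, and FBLN1 made up most of the sum. Macrophage markers summed to 200.4 to 219.0 CPM with vehicle and 182.7 to 190.3 with lenvatinib. With H3B-6527 they summed to 153.2 to 211.2 CPM, overlapping with vehicle, and with the combination to 165.8 to 200.3 CPM. Of the 10 in the table, 5 averaged under 1 CPM, and CD68 and LYZ made up most of the sum. In the edgeR test given below, 3 of the 8 tested were called higher and 2 lower with H3B-6527, beside 25.2% and 24.3% of all genes. Marker sums therefore moved with H3B-6527 for the hepatocyte and the fibroblast list, and their part in the results below was not tested. The host is a mouse and the table holds human symbols. The endothelial, fibroblast and macrophage sums can therefore not be read as amounts of host cells. In pieces of whole tumor, fewer cells of a type and less RNA per cell cannot be told apart. The 3 H3B-6527 tumors differed in several of the 9 genes, with replicate 1 and replicate 3 at opposite ends, and results that rest on either are given with and without it.

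H3B-6527 was accompanied by more CYP2D6 transcript and less CYP2B6 transcript, whether it was given alone or with lenvatinib. CYP2D6 went from 49.3 ± 7.80 CPM with vehicle to 133.3 ± 18.4 with H3B-6527 and 159.2 ± 9.0 with the combination (SD, n = 3). CYP2B6 went from 12.4 ± 2.81 CPM to 3.28 ± 2.46 and 3.14 ± 0.93. CYP1A1, CYP2A6 and CYP2C8 had higher means in both H3B-6527 groups, with single tumors that decided which comparison passed the test. CYP2J2 stayed between 12.7 and 20.2 CPM in all 12 tumors, and CYP2E1 and CYP2C19 were called in none of the comparisons with edgeR.

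**Figure D1:**
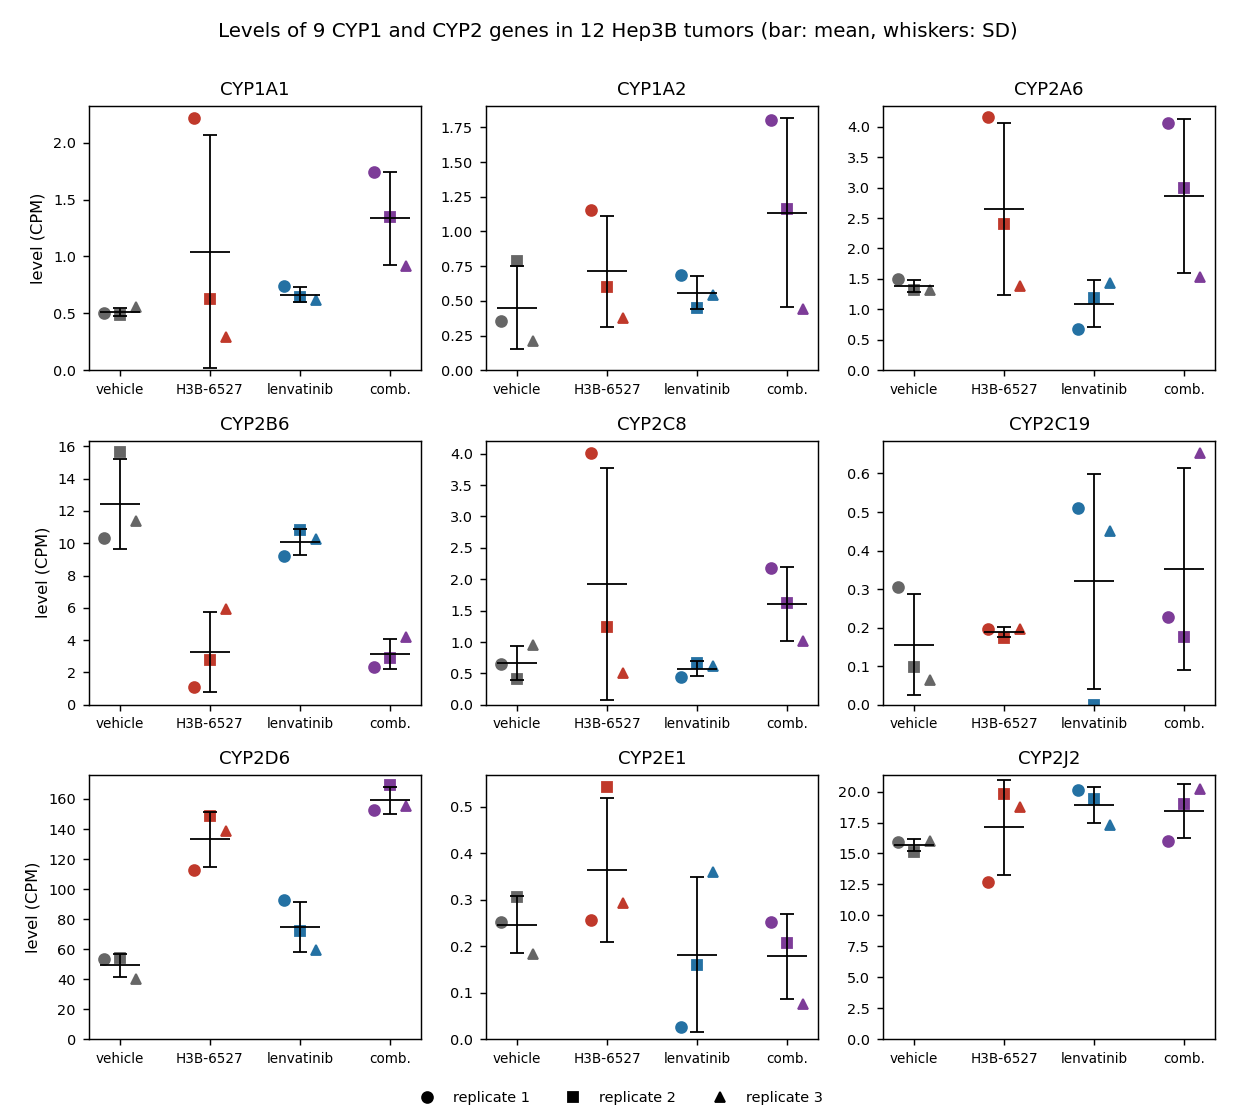
Level of each of the 9 genes in CPM (vertical axis, scale differs by panel) in the 3 tumors of each group (horizontal axis; marker shape names the replicate, the bar is the mean and the whiskers are the SD). CYP2D6 lies above 112 CPM in all 6 tumors given H3B-6527 and below 93 CPM in the other 6, CYP2B6 lies below 6 CPM in the former and above 9 CPM in the latter, and CYP1A1 and CYP2C8 each have 1 H3B-6527 tumor far above the other 2.

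The effect of H3B-6527 by itself was read against the vehicle tumors. In edgeR's quasi-likelihood test with Benjamini-Hochberg adjustment over all 15836 genes (threshold 0.05), 2 of the 9 genes were called higher, CYP2D6 and CYP2C8, and 1 lower, CYP2B6. Over all genes tested, 25.2% were called higher and 24.3% lower, so 3 of 9 is no larger a share than that of all genes. The median log2 fold change of the 9 was 0.68, beside 0.01 over all genes tested, and 8 of the 9 values were above 0. Scaling by library totals alone gave 3022 genes higher and 4960 lower in place of 3987 and 3842 and put the median of all genes at −0.114, with the same direction for the 3 genes called.

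CYP2D6, an oxidase of many antidepressants, beta blockers and opioids, gave the most certain difference of the 9. The vehicle tumors had 53.6, 54.0 and 40.3 CPM, and the H3B-6527 tumors 113, 148 and 139 CPM. Every H3B-6527 tumor lay above every vehicle tumor by more than the spread within either group. CYP2D6 rose by 1.43 ± 0.16 on the log2 scale (SE, adjusted p = 2.09e-05, 95% interval 1.08 to 1.79), which is 2.70-fold. In each of 19 other ways of processing the data that kept its own row the call held, with values from 1.31 to 1.54.

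CYP2B6, which oxidises bupropion, efavirenz and cyclophosphamide and is a standard readout of CAR activity, moved the other way. Its vehicle tumors had 10.3, 15.6 and 11.4 CPM, and its H3B-6527 tumors 1.11, 2.78 and 5.95 CPM. The groups did not overlap, but the H3B-6527 tumors differed 5.37-fold among themselves. CYP2B6 fell by 1.99 ± 0.42 (SE, edgeR adjusted p = 0.00238, 95% interval −2.91 to −1.06). Without replicate 1, the tumor with the least, it fell by 1.55 (adjusted p = 0.0022).

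CYP2C8, which oxidises paclitaxel and arachidonic acid, had 0.642, 0.408 and 0.946 CPM with vehicle and 4.01, 1.25 and 0.503 CPM with H3B-6527. Replicate 1 stood far above the others, and replicate 3 lay among the vehicle tumors. CYP2C8 rose by 1.57 ± 0.60 (SE, edgeR adjusted p = 0.0472), the weakest of the 3 calls. It was lost in 13 of 19 alternatives that kept its own row. Without H3B-6527 replicate 1 the value was 0.45 (adjusted p = 0.451), and without vehicle replicates 1, 2 and 3 in turn the adjusted p was 0.109, 0.137 and 0.0534. Without lenvatinib replicates 1, 2 and 3 it was 0.0590, 0.0568 and 0.0616, and without combination replicates 1 and 2 it was 0.0521 and 0.0600. DESeq2 kept the call (adjusted p = 0.0204).

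CYP2A6, the main nicotine oxidase, had 1.50, 1.32 and 1.32 CPM with vehicle and 4.17, 2.40 and 1.38 CPM with H3B-6527. Replicates 1 and 2 lay above every vehicle tumor and replicate 3 among them. The log2 fold change was 0.96 ± 0.41 (SE, edgeR adjusted p = 0.0686). It passed with DESeq2 (0.0482), without H3B-6527 replicate 3 (log2 fold change 1.25, adjusted p = 0.0146) and without combination replicate 3 (0.0420). It was 0.49 without H3B-6527 replicate 1 (adjusted p = 0.347).

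CYP1A1, which oxidises polycyclic aromatic hydrocarbons, had 0.503, 0.484 and 0.552 CPM with vehicle and 2.21, 0.623 and 0.293 CPM with H3B-6527. Of the H3B-6527 tumors 2 were above and 1 below all vehicle tumors, so the groups overlapped. Behind these values lay 86, 23 and 7 counts. The log2 fold change was 1.07 ± 0.54 (SE, edgeR adjusted p = 0.116), and it was −0.10 without replicate 1 (adjusted p = 0.861) and 1.47 without replicate 3 (adjusted p = 0.014). CYP1A2, the caffeine oxidase, had 0.357, 0.787 and 0.210 CPM with vehicle and 1.16, 0.601 and 0.377 CPM with H3B-6527. Its groups overlapped, with a log2 fold change of 0.68 ± 0.58 (SE, edgeR adjusted p = 0.356).

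CYP2J2 had 15.9, 15.1 and 16.0 CPM with vehicle and 12.7, 19.8 and 18.7 CPM with H3B-6527. The H3B-6527 tumors lay on both sides of the vehicle tumors. Its log2 fold change was 0.12 ± 0.15 (SE, edgeR adjusted p = 0.515), with a 95% interval of −0.20 to 0.44, the narrowest of the 9. Without H3B-6527 replicate 1, its lowest tumor, the value was 0.30 and passed the test (adjusted p = 0.0398), and without replicate 2 it was −0.0045 (adjusted p = 0.983).

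CYP2E1, the ethanol and paracetamol oxidase, rested on 7 to 12 counts per vehicle tumor and 7 to 20 per H3B-6527 tumor, or 0.184 to 0.306 CPM against 0.257 to 0.542 CPM. CYP2C19, the omeprazole and clopidogrel oxidase, had 0.307, 0.0974 and 0.0643 CPM with vehicle and 0.196, 0.174 and 0.196 CPM with H3B-6527. For both genes the groups overlapped. The log2 fold changes were 0.57 ± 0.60 for CYP2E1 (SE, edgeR adjusted p = 0.455) and 0.33 ± 0.95 for CYP2C19 (adjusted p = 0.799). Their 95% intervals ran from −0.72 to 1.86 and from −1.74 to 2.40, which leaves room for a change of 2-fold in either direction for CYP2C19 and for a rise of that size for CYP2E1.

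**Figure D2:**
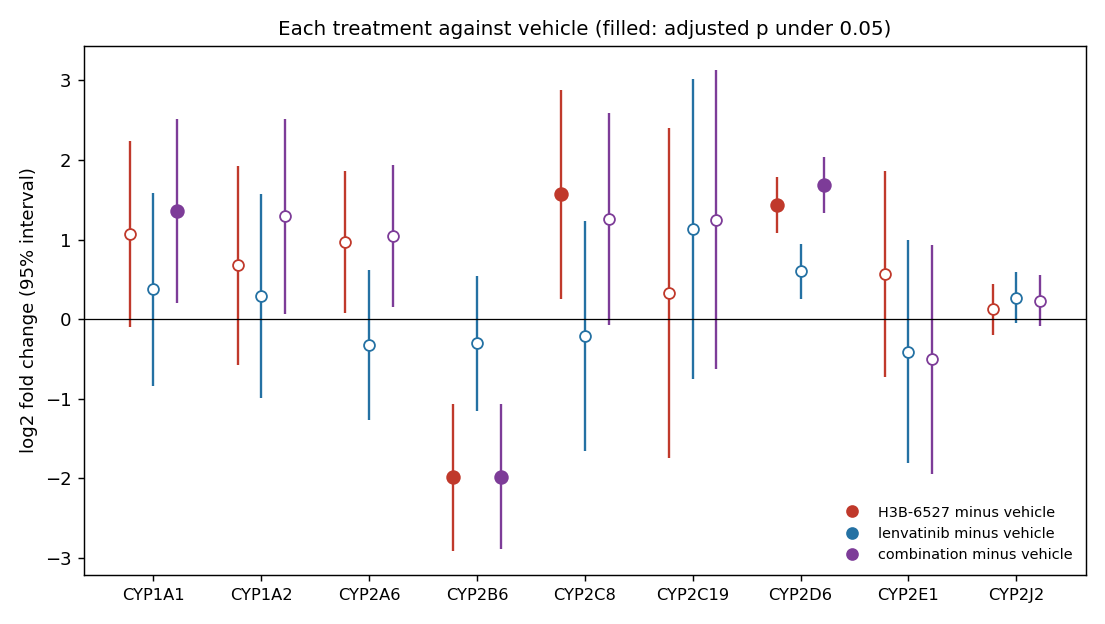
Log2 fold change of each gene against vehicle (vertical axis) for H3B-6527, lenvatinib and the combination; lines are 95% intervals from the edgeR fit, filled points passed an adjusted p of 0.05. CYP2D6 and CYP2B6 are filled for H3B-6527 and the combination, CYP2C8 for H3B-6527 and CYP1A1 for the combination, and no lenvatinib point is filled.

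The effect of lenvatinib by itself was read in the same way. edgeR called 0 of the 9 genes, and 0% of all genes were called higher and 0% lower. At an unadjusted p under 0.05 it was 1 of 9 genes, CYP2D6, beside 10.7% of all genes. CYP2D6 had 92.7, 72.1 and 59.6 CPM with lenvatinib, each above the 3 vehicle tumors but with the lowest near them. The log2 fold change was 0.60 ± 0.16 (SE, unadjusted p = 0.00257, edgeR adjusted p = 0.185, 95% interval 0.25 to 0.95). voom called none of the 9. DESeq2 called CYP2D6 higher (adjusted p = 0.0332), where it called 0.808% of all genes higher and 0.739% lower.

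CYP2B6 had 9.22, 10.8 and 10.3 CPM with lenvatinib, within and just below the vehicle range, and a log2 fold change of −0.30 ± 0.39 (SE, edgeR adjusted p = 0.85). CYP1A1 had 0.740, 0.642 and 0.615 CPM, each slightly above the 3 vehicle tumors, with a log2 fold change of 0.37 ± 0.56 (SE, edgeR adjusted p = 0.876). CYP2J2 had 20.1, 19.4 and 17.3 CPM, also above all 3 vehicle tumors, with 0.27 ± 0.15 (SE, edgeR adjusted p = 0.548). These small shifts did not pass the test.

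CYP2A6 had 0.675, 1.19 and 1.43 CPM with lenvatinib (log2 fold change −0.32 ± 0.43, SE), CYP2C8 0.438, 0.674 and 0.615 CPM (−0.21 ± 0.66) and CYP1A2 0.686, 0.451 and 0.539 CPM (0.29 ± 0.59). All 3 overlapped with vehicle, with edgeR adjusted p of 0.857, 0.946 and 0.91. CYP2C19 had 0.510 and 0.450 CPM in replicates 1 and 3 but no count in replicate 2, where a count of 0 allows up to 0.0962 CPM (3 counts, counting error only). CYP2E1 had 0.0274, 0.160 and 0.359 CPM, from 1, 5 and 14 counts. For CYP2C19 and CYP2E1 the spread within the lenvatinib group was thus wider than the distance to vehicle.

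The tumors given both agents were compared with vehicle next. edgeR called CYP2D6 and CYP1A1 higher and CYP2B6 lower, 3 of the 9, while 24.8% of all genes tested were called higher and 25.3% lower. CYP2D6 had 153, 169 and 155 CPM, with an SD of 5.65% of the mean, the smallest relative spread among the groups. It rose by 1.69 ± 0.16 (SE, edgeR adjusted p = 7.87e-06), or 3.23-fold. CYP2B6 had 2.34, 2.91 and 4.17 CPM, all below the vehicle tumors. It fell by 1.98 ± 0.42 (SE, edgeR adjusted p = 0.00221).

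CYP1A1 had 1.74, 1.35 and 0.914 CPM with the combination, each above the vehicle tumors. It rose by 1.36 ± 0.54 (SE, edgeR adjusted p = 0.0497), at the edge of the threshold. The call was lost in 12 of 19 alternatives that kept its own row. Leaving out vehicle replicates 1, 2 and 3 gave adjusted p of 0.113, 0.114 and 0.101, lenvatinib replicates 1, 2 and 3 gave 0.0645, 0.0660 and 0.0649, and combination replicates 1 and 2 gave 0.158 and 0.0980. The value stayed between 1.12 and 1.58 throughout, and without H3B-6527 replicate 1, which enters this contrast only through the shared estimate of spread, the adjusted p was 0.00205.

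CYP2A6 had 4.06, 2.99 and 1.54 CPM with the combination, all above vehicle, and CYP2C8 had 2.18, 1.62 and 1.02 CPM, also all above vehicle. CYP2A6 had a log2 fold change of 1.04 ± 0.41 (SE, edgeR adjusted p = 0.0511), just outside the threshold. It passed in 7 of 19 alternatives that kept its own row. These included leaving out H3B-6527 replicate 1 (adjusted p = 0.0209) or 3 (0.0247), lenvatinib replicate 1 (0.0479) or combination replicate 3 (0.0133). CYP2C8 had 1.26 ± 0.61 (SE, edgeR adjusted p = 0.105), which passed without H3B-6527 replicate 1 (0.0132) or replicate 3 (0.0347) and with the 2 groups alone (0.0112).

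CYP1A2 had 1.81, 1.16 and 0.439 CPM with the combination. The lowest tumor lay within the vehicle range and the other 2 above it. Its log2 fold change was 1.29 ± 0.56 (SE, edgeR adjusted p = 0.0738), and it passed without vehicle replicate 2 (1.96, adjusted p = 0.0247) or without combination replicate 3 (1.70, adjusted p = 0.0167). CYP2J2 had 16.0, 19.0 and 20.2 CPM and 0.23 ± 0.15 (SE, edgeR adjusted p = 0.206). CYP2C19 had 0.228, 0.177 and 0.653 CPM, and CYP2E1 0.253, 0.207 and 0.0762 CPM, both overlapping with vehicle.

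Combination against H3B-6527 asks what lenvatinib added. edgeR called 0 of the 9 genes and none passed at an unadjusted p under 0.05, and DESeq2 and voom also called none. Over all genes 0.0126% were called higher and 0% lower, with 9.42% at an unadjusted p under 0.05. CYP2D6 was higher in each combination tumor than in each H3B-6527 tumor, by a log2 fold change of 0.26 ± 0.16 (SE, edgeR adjusted p = 0.648, 95% interval −0.09 to 0.60). The value for CYP2B6 was 0.01 ± 0.44 (SE, edgeR adjusted p = 0.998), with a 95% interval of −0.96 to 0.97, so changes of nearly 2-fold in either direction were within the error.

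Combination against lenvatinib asks what H3B-6527 added. It shares no tumor with H3B-6527 against vehicle, so the values of both can be set side by side. edgeR called 3 of the 9, CYP2D6 and CYP2A6 higher and CYP2B6 lower, beside 19.1% of all genes called higher and 20.9% lower. CYP2D6 rose by 1.09 ± 0.16 (SE, edgeR adjusted p = 3.13e-04), beside 1.43 without lenvatinib. CYP2B6 fell by 1.68 ± 0.42 (SE, edgeR adjusted p = 0.00847), beside 1.99. All 3 combination tumors were above all 3 lenvatinib tumors in CYP2D6 and below them in CYP2B6.

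CYP2A6 rose by 1.36 ± 0.42 in that comparison (SE, edgeR adjusted p = 0.0222), beside 0.96 without lenvatinib, and its tumors did not overlap. The call was lost without lenvatinib replicate 1 (adjusted p = 0.0813) or 2 (0.0561) and without combination replicate 1 (0.101) or 2 (0.0586). CYP2C8 had 1.47 ± 0.62 (SE, edgeR adjusted p = 0.0798), beside 1.57, and CYP1A1 0.99 ± 0.52 (adjusted p = 0.152), beside 1.07. Without H3B-6527 replicate 1 both passed, at adjusted p of 0.00799 and 0.0163, and CYP2C8 also passed without H3B-6527 replicate 3 (0.0234). CYP1A2 had 1.00 ± 0.56 (SE, edgeR adjusted p = 0.171), beside 0.68, and passed without combination replicate 3 (1.41, adjusted p = 0.0466). CYP2J2 had −0.04 ± 0.15 (SE, edgeR adjusted p = 0.858), beside 0.12.

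**Figure D3:**
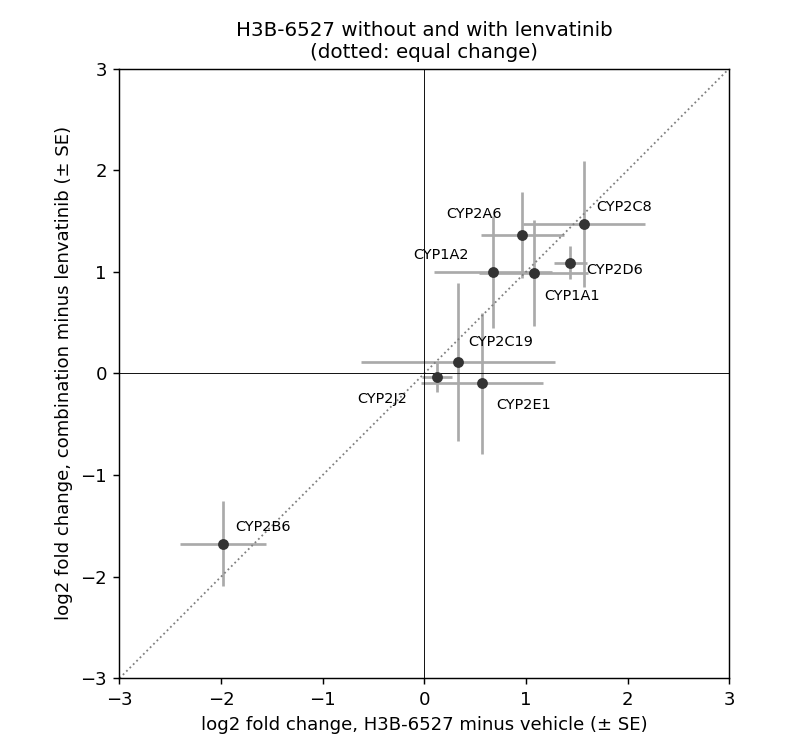
Log2 fold change of each gene with H3B-6527 added to vehicle (horizontal axis) and added to lenvatinib (vertical axis), from tumors that the comparisons do not share; bars are SE and the dotted line marks equal change. CYP2B6 lies at −1.99 and −1.68, CYP2D6 at 1.43 and 1.09, and CYP2J2 near 0 on both axes.

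Whether the response to H3B-6527 differed with lenvatinib was tested by the difference between these comparisons (non-additivity on the log2 scale). edgeR called 0 of the 9 genes, and none passed at an unadjusted p under 0.05. DESeq2 and voom also called none of the 9. Of all genes, 0% were called higher and 0% lower, and 5.39% had an unadjusted p under 0.05. The difference was −0.35 ± 0.22 for CYP2D6 (SE, edgeR adjusted p = 0.923, 95% interval −0.83 to 0.14) and 0.31 ± 0.59 for CYP2B6 (adjusted p = 0.966, 95% interval −0.98 to 1.60). These intervals leave room for a response of CYP2D6 that was smaller with lenvatinib by up to 0.83.

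A contrast added after the values were seen took the mean of both comparisons, setting the 6 tumors given H3B-6527 against the 6 not given it. In edgeR, 5 of the 9 genes passed, where 30.1% of all genes were called higher and 30.2% lower. CYP2D6 rose by 1.26 ± 0.11 (SE, adjusted p = 1.74e-06) and CYP2B6 fell by 1.83 ± 0.30 (adjusted p = 2.47e-04), both without overlap among the 12 tumors. CYP2C8 rose by 1.52 ± 0.43 (SE, adjusted p = 0.00941) and CYP2A6 by 1.17 ± 0.29 (adjusted p = 0.00439), both with overlapping tumors. The calls of CYP2A6 and CYP2C8 held in all 18 alternatives that kept each gene's own row. Without H3B-6527 replicate 1 the value was 0.96 for CYP2C8 (adjusted p = 0.0138) and 0.92 for CYP2A6 (adjusted p = 0.00898).

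CYP1A1 rose by 1.03 ± 0.38 in the same contrast (SE, edgeR adjusted p = 0.0306). That call was lost in 9 of 18 alternatives that kept its own row. Without H3B-6527 replicate 1 the value was 0.45 (adjusted p = 0.141). Without vehicle replicates 1, 2 and 3 the adjusted p was 0.0589, 0.0600 and 0.0530, without lenvatinib replicates 2 and 3 it was 0.0593 and 0.0622, and without combination replicates 1 and 2 it was 0.0745 and 0.0538. CYP2J2 had 0.04 ± 0.10 (SE, adjusted p = 0.746), with a 95% interval of −0.18 to 0.27. CYP1A2 had 0.84 ± 0.40 (SE, adjusted p = 0.0886), CYP2E1 0.24 ± 0.46 (adjusted p = 0.681) and CYP2C19 0.22 ± 0.61 (adjusted p = 0.775).

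Lenvatinib against H3B-6527 set the single agents side by side. edgeR called 4 of the 9, CYP2B6 higher with lenvatinib and CYP2D6, CYP2A6 and CYP2C8 lower, beside 20.6% of all genes called higher and 20.5% lower. CYP2B6 was higher by 1.68 ± 0.42 (SE, edgeR adjusted p = 0.00835), and CYP2D6 had −0.83 ± 0.16 (adjusted p = 0.00148). CYP2A6 had −1.29 ± 0.42 (SE, edgeR adjusted p = 0.0281) and CYP2C8 −1.78 ± 0.61 (adjusted p = 0.0367), both with overlapping tumors. Without H3B-6527 replicate 1 they were −0.81 (adjusted p = 0.143) and −0.66 (adjusted p = 0.294). The CYP2A6 call was also lost without lenvatinib replicate 1 (0.0996) or 2 (0.0664), and the CYP2C8 call without lenvatinib replicate 1 (0.108), 2 (0.0719) or 3 (0.0835).

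The order of group means for CYP2D6 was vehicle, lenvatinib, H3B-6527, combination, and of these neighbours only lenvatinib and H3B-6527 differed by the edgeR test. For CYP2B6 the order was combination, H3B-6527, lenvatinib, vehicle, again with only H3B-6527 and lenvatinib differing among neighbours. CYP2A6 ran lenvatinib, vehicle, H3B-6527, combination, CYP2C8 ran lenvatinib, vehicle, combination, H3B-6527, and CYP1A1 and CYP1A2 ran vehicle, lenvatinib, H3B-6527, combination. For these 4 genes no neighbours in the order differed by the test. For CYP2J2, at 15.7 ± 0.47 CPM with vehicle, 17.1 ± 3.82 with H3B-6527, 18.4 ± 2.16 with the combination and 18.9 ± 1.47 with lenvatinib (SD, n = 3), no pair passed the test.

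Within the groups given H3B-6527, the same tumors were high in several genes. H3B-6527 replicate 1 had the highest CYP1A1, CYP1A2, CYP2A6 and CYP2C8 of its group and the lowest CYP2B6, CYP2D6 and CYP2J2, and replicate 3 had the lowest of the first 4 and the highest CYP2B6. The combination group held a tumor of each kind too. Its replicate 1 was highest in CYP1A1, CYP1A2, CYP2A6 and CYP2C8 and lowest in CYP2B6, and its replicate 3 the reverse. H3B-6527 replicate 3 was the smallest library of the series and combination replicate 3 the largest, so depth went opposite ways in the 2 groups. The hepatocyte-lineage sum was lowest in replicate 3 of both groups, and its part in these orders was not tested.

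The spread within groups is given here as a description. The coefficient of variation of CYP1A1 was 6.81% with vehicle, 98.4% with H3B-6527, 9.84% with lenvatinib and 30.9% with the combination. For CYP2B6 it was 22.6%, 75.0%, 7.98% and 29.8% in the same order. For CYP1A2 it was 66.4%, 56.5%, 21.3% and 60.2%. CYP2D6 varied least with the combination, at 5.65%, and between 13.8% and 22.3% in the other groups. The CYP1A1 value with vehicle rests on 18 to 21 counts per tumor. With 3 tumors a group these spreads were not tested.

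Likeness between genes was measured as the root mean square difference, over the 12 tumors, of log2 CPM values centred on each gene's mean. Among the 9, CYP2A6 and CYP2C8 were closest (0.40), followed by CYP1A1 and CYP2C8 (0.45) and CYP1A1 and CYP1A2 (0.52). CYP2B6 and CYP2C8 were farthest apart (1.97). Of 12046 other genes, PBLD (0.17), TMEFF2 (0.18) and AQP7 (0.18) were most like CYP2D6, where the median gene was at 0.73. OLFM2, ARFGEF3 and SLC6A6 (all 0.25) were most like CYP2B6, where the median gene was at 1.11.

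SLCO1B1, a hepatocyte uptake transporter, was the gene most like CYP2A6 (0.24), followed by TNFRSF10C and AQP3 (both 0.30). P4HA2 (0.29), NAALADL2 (0.41) and UPK3A (0.42) were most like CYP2C8, UPK3A (0.31), NPIPB9 (0.31) and EVPL (0.32) most like CYP1A1, and SLC51A (0.34), ORAI3 (0.39) and SIAE (0.41) most like CYP1A2. The median gene was at 0.94 for CYP2C8, 0.78 for CYP1A1 and 0.79 for CYP1A2. For CYP2J2 the closest were POLD1, PAK4 and ATP5G3 (all 0.08), which like it varied little. For CYP2C19 and CYP2E1 the nearest genes were SPOCK3 at 0.74 and AC073896.1 at 0.54. CYP2C19 and CYP2E1 had at most 25.7 and 20 counts in any tumor. Counting error widens their difference from every gene, so a lack of close matches cannot be read from these values. The distances of CYP1A1, CYP1A2 and CYP2C8 carry counting error too, with as few as 7, 8 and 12 counts in a tumor.

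Several of the 9 have near-identical copies, and kallisto divides reads that fit more than 1 copy. Counts were not whole in 12 of 12 libraries for CYP2D6, 11 for CYP2C19, 10 for CYP2A6, and 8 each for CYP2B6 and CYP1A2 (tolerance 0.01), and whole in all libraries for CYP1A1, CYP2C8, CYP2E1 and CYP2J2. The split of reads within these subfamilies is uncertain, so rows of close copies were also summed for 4 subfamilies, of which 3 are described. CYP2B6 was in none of the sums, so its fall was not checked against a close copy. CYP2D6 with CYP2D7, its neighbouring pseudogene copy, rose by 1.28 ± 0.17 with H3B-6527 (SE, edgeR adjusted p = 5.93e-05) and by 1.56 ± 0.17 with the combination (adjusted p = 1.6e-05). CYP2D7 alone had 22.3, 25.3 and 15.4 CPM with vehicle and 30.9, 41.4 and 41.4 CPM with H3B-6527, so both rows were higher.

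The CYP2A sum (CYP2A6, CYP2A7 and CYP2A13) had 0.82 ± 0.40 with H3B-6527 (SE, edgeR adjusted p = 0.104) and 1.17 ± 0.40 in combination minus lenvatinib (adjusted p = 0.0362). The CYP1A sum had 0.89 ± 0.51 with H3B-6527 (SE, edgeR adjusted p = 0.162) and rose by 1.34 ± 0.50 with the combination (adjusted p = 0.042).

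**Figure D4:**
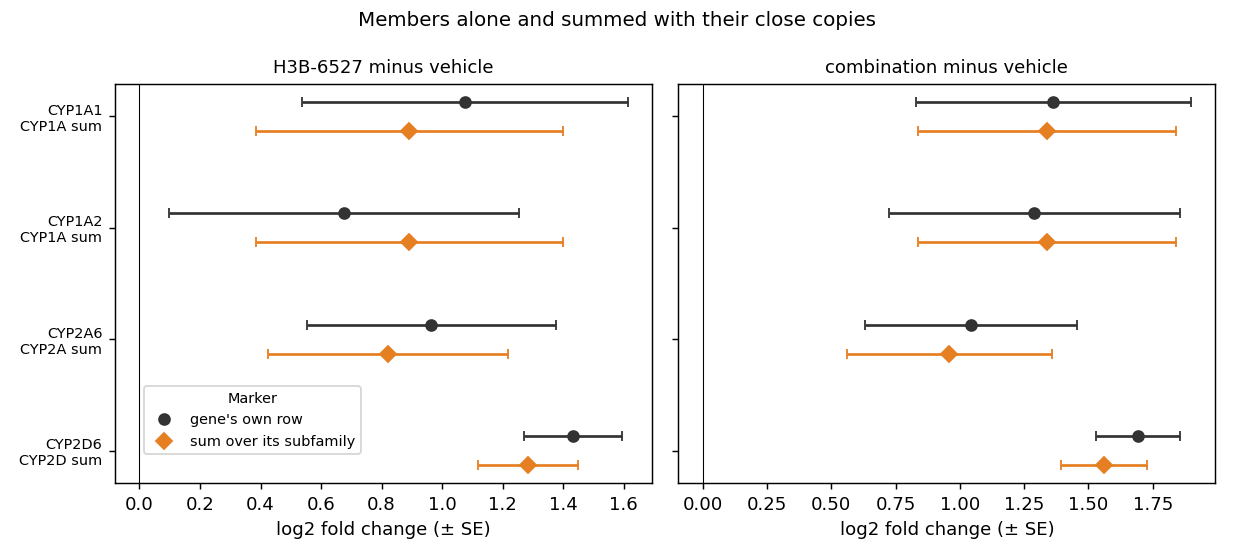
Log2 fold change with SE (horizontal axes) of 4 genes from their own rows (circles) and from the sum over their subfamily (diamonds), for H3B-6527 minus vehicle (left) and combination minus vehicle (right). CYP2D6 keeps its rise in the sum (1.43 and 1.28 with H3B-6527), and CYP2A6 goes from 0.96 to 0.82.

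Among other CYP1 and CYP2 genes, 9 of the 11 in the table were tested. In H3B-6527 minus vehicle 5 were called higher and 0 lower (median log2 fold change 0.40, beside 0.01 over all genes tested, of which 25.2% were called higher and 24.3% lower). CYP2U1, a fatty acid hydroxylase, rose by 1.50 ± 0.27 (SE, edgeR adjusted p = 4.89e-04), from 1.12 to 1.29 CPM with vehicle to 2.39 to 4.84 CPM. CYP1B1, the estrogen hydroxylase of the CYP1 family, rose by 0.75, CYP2F1 by 0.86, CYP2D7 by 0.85 and CYP2R1, a vitamin D 25-hydroxylase, by 0.36. The number was 2 without vehicle replicate 1 or 3 and in a fit of these 2 groups alone, and 3 without H3B-6527 replicate 1 and with library totals. Of all genes (15369 to 16095 tested), these fits called 3315, 3239, 3279, 3435 and 3022 higher, in that order, in place of 3987. CYP2W1 (0.39), CYP2A7 (0.17) and CYP2C18 (−0.07) did not pass. In the combination minus vehicle 4 of the 9 were called higher, beside 24.8% of all genes. In lenvatinib minus vehicle it was 0 of 9, with 1 at an unadjusted p under 0.05, beside 10.7% of all genes.

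Of 8 AHR target genes outside the set, 3 were called higher and 2 lower with H3B-6527 (median −0.12), beside 25.2% and 24.3% of all genes, and 1 was higher without vehicle replicate 1, vehicle replicate 3 or H3B-6527 replicate 3. Over all genes, those 3 fits called 3315, 3239 and 4175 higher, in that order, in place of 3987. TIPARP, an AHR-induced ADP-ribosyltransferase, rose by 0.56 ± 0.14 and CYP1B1 by 0.75 ± 0.24 (SE). NQO1, a quinone reductase that NRF2 also controls, fell by 1.03 ± 0.12 (SE, edgeR adjusted p = 2.09e-05), and NFE2L2, the gene of NRF2 itself, fell by 1.40 ± 0.16 (adjusted p = 1.96e-05). AHRR, the AHR repressor and a sensitive AHR target, had 1.31, 0.922 and 0.885 CPM with vehicle and 0.718, 1.09 and 0.798 CPM with H3B-6527, with a log2 fold change of −0.26 ± 0.27 (SE, edgeR adjusted p = 0.463). Thus AHR targets went in both directions, beside CYP1A1 at 1.07 and CYP1A2 at 0.68.

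Of 16 tested CAR and PXR target genes outside the set, 12 were called higher and 0 lower with H3B-6527 (median 1.25), beside 25.2% of all genes called higher. This list, like the others, was chosen with earlier results of these data known. Its share beside that of all genes is therefore a description and not a test. In 19 alternatives 11 or 12 were called higher and at most 1 lower, while 3022 to 4175 of all genes were called higher. EPHX1, the microsomal epoxide hydrolase, rose by 2.12 ± 0.24 (SE, edgeR adjusted p = 2.96e-05), from 118 to 137 CPM with vehicle to 350 to 715 CPM. SULT2A1, a bile acid and steroid sulfotransferase, rose by 1.74, the exporter ABCC3 by 1.51 and CYP3A5 by 1.95. In the combination minus lenvatinib 11 of the 16 were called higher and 0 lower, beside 19.1% and 20.9% of all genes. In lenvatinib minus vehicle it was 0 of 16, with 1 at an unadjusted p under 0.05, beside 10.7% of all genes. CYP2B6, a target of the same receptors, was lower in both comparisons with H3B-6527. In the mean contrast 13 of the 16 were called higher and 2 lower, beside 30.1% and 30.2% of all genes. The 2 lower, named after their values were seen, were UGT1A1, the bilirubin glucuronosyltransferase, at −0.76 ± 0.26 (SE, edgeR adjusted p = 0.0216) and ABCB1, the P-glycoprotein exporter, at −0.39 ± 0.15 (adjusted p = 0.0439). The hepatocyte-lineage list also had 8 of 10 genes called higher with H3B-6527 (median 1.20), and its part in the CAR and PXR list was not tested.

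**Figure D5:**
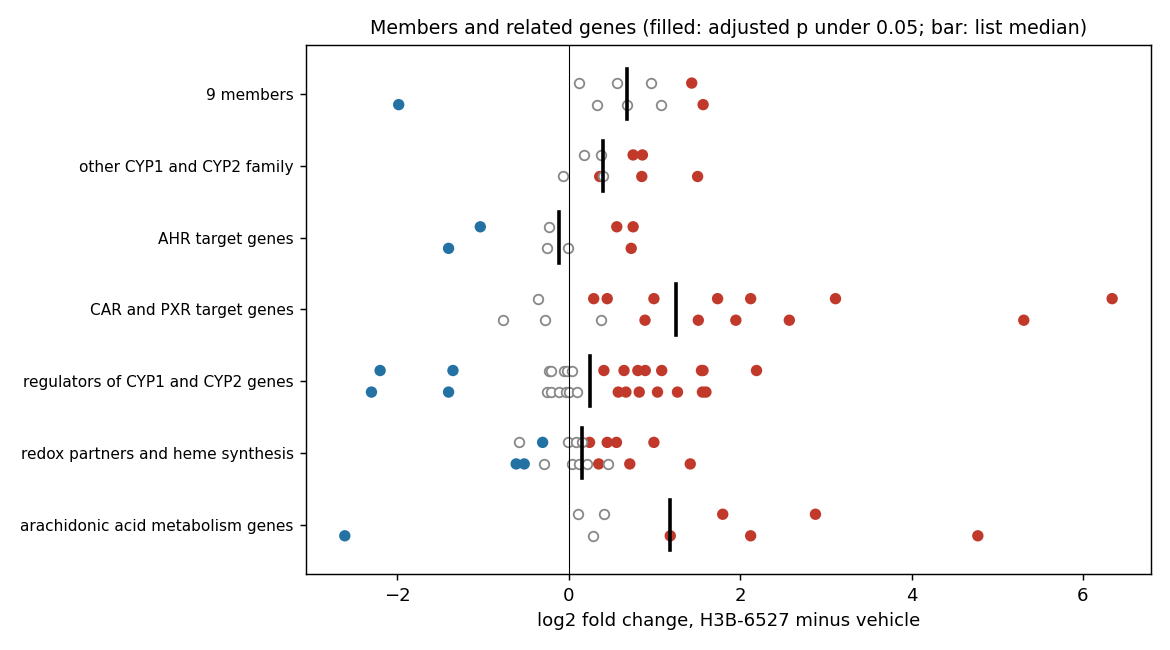
Log2 fold change in H3B-6527 minus vehicle (horizontal axis) of each tested gene in the set of 9 and in 6 related lists (rows); filled points passed an adjusted p of 0.05 in edgeR and bars are list medians. CYP2B6 is the 1 filled point left of 0 among the 9, the CAR and PXR targets have 12 filled points right of 0 and none left of it, and the AHR targets lie on both sides.

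Of 30 regulators of these genes, 15 were called higher and 4 lower with H3B-6527 (median 0.25), beside 25.2% and 24.3% of all genes. The CAR gene NR1I3 had 3.55, 5.14 and 4.73 CPM with vehicle and 22.4, 10.1 and 8.01 CPM with H3B-6527, and rose by 1.60 ± 0.34 (SE, edgeR adjusted p = 0.00232). The PXR gene NR1I2 had 1.01, 1.20 and 0.473 CPM with vehicle and 6.35, 3.25 and 2.51 CPM with H3B-6527, and rose by 2.19 ± 0.43 (adjusted p = 0.00139). In both genes every H3B-6527 tumor was above every vehicle tumor, replicate 1 being the highest. Replicate 1 was also the highest of its group in CYP2A6, CYP2C8, CYP1A1 and CYP1A2, and the lowest in CYP2B6. A link between these orders was not tested.

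AHR itself had 119 to 126 CPM with vehicle and 106 to 121 CPM with H3B-6527, with a log2 fold change of −0.11 ± 0.10 (SE, edgeR adjusted p = 0.367). Its dimerisation partner ARNT rose by 0.89 ± 0.08 and RXRA, the partner of CAR and PXR, by 1.08 ± 0.09 (SE). ONECUT1, a liver transcription factor, rose by 1.55 ± 0.11 (SE, edgeR adjusted p = 1.06e-06). HLF, a PAR bZIP factor of circadian liver genes, fell by 2.20 ± 0.19 (SE, edgeR adjusted p = 3.16e-06).

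Of 19 genes for redox partners and heme synthesis, 7 were called higher and 3 lower with H3B-6527 (median 0.15), where 25.2% and 24.3% of all genes were called, so the share of this list is near that of all genes. The number higher was 4 without H3B-6527 replicate 2, with library totals and in a fit of these 2 groups alone, and the number lower was 1 without vehicle replicate 1 or 3. Over all genes the number higher in those fits was 3673, 3022 and 3279, in that order, in place of 3987. The number lower over all genes was 3148 and 3105, in place of 3842. POR had 104, 94.1 and 94.3 CPM with vehicle and 248, 193 and 141 CPM with H3B-6527, and rose by 0.99 ± 0.17 (SE, edgeR adjusted p = 3.6e-04). ALAS1, the first and rate-limiting enzyme of heme synthesis, rose by 0.45 ± 0.11 (adjusted p = 0.00369), and ALAD, the next enzyme, by 1.42 ± 0.11. CYB5A, cytochrome b5, rose by 0.71 ± 0.14, whereas CYB5R3, its reductase, fell by 0.52 ± 0.10 (SE).

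Beside CYP2J2, 9 of 11 genes of arachidonic acid metabolism were tested, and 5 were called higher and 1 lower with H3B-6527 (median 1.18), beside 25.2% and 24.3% of all genes. CYP4F3, a leukotriene and fatty acid omega-hydroxylase, rose by 4.77 ± 0.33 (SE, edgeR adjusted p = 1.57e-06), from 3.91 to 7.12 CPM with vehicle to 113 to 236 CPM. Its counts were not whole in 12 of 12 libraries, so the split of reads from close copies is uncertain. EPHX2, the soluble epoxide hydrolase that opens the epoxides made by CYP2J2, rose by 1.18 ± 0.16, and EPHX1 is given above. PLA2G4A, the phospholipase that frees arachidonic acid, fell by 2.61 ± 0.36 (SE, edgeR adjusted p = 8.47e-05). CYP2J2 itself lay at 0.12.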

How the data were processed

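RNA of 12 Hep3B xenograft tumors was sequenced, each library on 4 lanes. Values are the authors' deposited expected counts per gene, estimated by kallisto and not scaled. The submitters' processing notes name STAR, kallisto and the builds GRCh37 and GRCm38; versions, annotation, filters and whether mouse reads were removed are not given in the sources used here. Human symbols fill the table, although the samples carry a mouse label.

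Counts were rounded to whole numbers, and filterByExpr on the 4 groups kept 15836 genes. edgeR 4.0.16 in R 4.3.3 was used (TMM factors, robust quasi-likelihood F-test, 2-sided), with all 12 libraries in 1 fit, Benjamini-Hochberg adjustment over all genes of a comparison and a threshold of 0.05. SE and 95% intervals come from that fit. CPM values divide the unrounded counts by the total over tested genes times the TMM factor. The 6 pairs of groups and non-additivity were compared, and a mean contrast was added later. Library totals of 23.8 to 40.9 M put a floor of 3 counts at 0.0762 to 0.126 CPM. Floors cover counting error only, and the libraries carry no molecular identifiers. The scripts were tested on simulated data.

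Replicates are tumors of separate mice, numbered in accession order, and no batch or pairing is labelled. The text names the 9 genes, related family genes with at least 10 counts in 3 tumors, up to 4 genes of each other list with the smallest p in H3B-6527 minus vehicle, 6 genes by name, and for likeness the 3 nearest genes with mean log2 CPM of 1 or more. The lists were other CYP1 and CYP2 genes, AHR targets, CAR and PXR targets, regulators, redox and heme genes, arachidonic acid genes, and markers of endothelial cells, fibroblasts, macrophages and hepatocytes. Members and lists were chosen with earlier results of these data known. Alternatives were DESeq2 1.42.0, limma 3.58.1 voom on unrounded counts, other size factors, other filters, fits of 2 groups, summed subfamily rows and each library left out. No human genome was used here, so sequences, positions and lengths are not reported. One gene of the related family is not reported here by name, nor is the sum that includes it.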

Additional observations from a re-analysis of the deposited data

How the results depend on the processing

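The calls of CYP2D6 and CYP2B6 held in all alternatives of each comparison in which they were made with edgeR's test, and no called gene changed its direction. In the alternative with subfamily rows summed, CYP2B6 kept its own row. Of the members' values under the alternatives, 1257 kept their side of the threshold and direction, 53 lost a call, 30 gained one and 58 changed sign without a call on either side. The number of the 9 genes called differed by over 1.5 times as follows. For lenvatinib minus vehicle it was 1 with DESeq2 in place of 0. In a fit of only the 2 groups compared it was 5 in place of 3 for combination minus vehicle. It was also 5 in place of 3 for combination minus lenvatinib, and 2 in place of 4 for lenvatinib minus H3B-6527. Those fits tested 7, 8 and 8 of the 9 genes, in that order. Of all genes, the first called 4380 higher and 4412 lower of 15338 tested. The second called 3456 and 3546 of 15267, and the third 2170 and 2219 of 15332. For lenvatinib minus H3B-6527 the number of the 9 genes called was also 2 with no low-count filter and 2 with subfamily rows summed. Of all genes, the former called 2996 higher and 2799 lower of 27039 tested, and the latter 3265 and 3246 of 15830. Smaller differences were 2 or 4 in place of 3 for H3B-6527 minus vehicle and for combination minus vehicle, 4 in place of 3 for combination minus lenvatinib, 3 in place of 4 for lenvatinib minus H3B-6527, and 4 or 7 in place of 5 for the mean contrast, the 7 with subfamily rows summed, where members that share a sum each count. Leaving out 1 library at a time gave 2 to 5 genes for H3B-6527 minus vehicle, 2 to 5 for combination minus vehicle, 2 to 5 for combination minus lenvatinib, 2 to 4 for lenvatinib minus H3B-6527, 4 to 6 for the mean contrast, and 0 for lenvatinib minus vehicle, combination minus H3B-6527 and non-additivity. The calls over all genes (16036 to 16095 tested) varied too. In the order of the first 5 comparisons, 3239 to 4175, 3244 to 4304, 2226 to 3513, 2412 to 3724 and 4390 to 4945 were higher. In the same order, 3105 to 4211, 3280 to 4483, 2326 to 3938, 2442 to 3602 and 4444 to 4948 were lower. The cause was not tested. Library totals put the median of all genes at −0.137 for combination minus vehicle (2923 higher and 5339 lower, in place of 3924 and 4006), at −0.106 for combination minus lenvatinib (2293 and 4348, in place of 3020 and 3309) and at −0.105 for the mean contrast (3629 and 6009, in place of 4765 and 4783). They gave 3989 higher and 2562 lower for lenvatinib minus H3B-6527, in place of 3265 and 3248. A filter of 1 CPM in 3 tumors left 7 of the 9 genes, without CYP2C19 and CYP2E1. DESeq2 called 81 genes higher and 17 lower for combination minus H3B-6527 and 13 higher and 5 lower for non-additivity, none of them among the 9. No paired analysis was possible because the labels carry no replicate numbers. Counting error alone gave a ratio of H3B-6527 to vehicle of 1.27 (95% interval 0.624 to 2.6) for CYP2C19 and 2.27 (1.64 to 3.17) for CYP1A1, and the spread between tumors is not in these intervals.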

Other observations

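Within the CAR and PXR list, 2 genes outside the naming rule had the widest rises of the genes in it; they were chosen here after their values were seen. CYP3A7, the form of CYP3A found in fetal liver, had 12.5, 11.6 and 11.3 CPM with vehicle and 1913, 782 and 177 CPM with H3B-6527. With lenvatinib it had 14.6, 10.8 and 14.0 CPM, and with the combination 958, 1150 and 431 CPM. All 6 tumors given H3B-6527 lay above the 6 others, and replicate 3 was the lowest of both H3B-6527 groups. GSTA1, a glutathione S-transferase of liver, had 9.13, 6.80 and 7.05 CPM with vehicle and 570, 258 and 82.3 CPM with H3B-6527. Its combination tumors had 516, 321 and 136 CPM, against 12.1, 11.8 and 10.9 CPM with lenvatinib. In both groups replicate 3, the tumor with the most CYP2B6, had the least GSTA1. Counts of CYP3A7 and GSTA1 were not whole in 12 of 12 libraries, so the split of reads from their close copies is uncertain.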
